A study of Mus musculus with 27 samples.

Results

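The genes described are 8 transcription factors that set and maintain the identity of sensory neurons: Isl1, Pou4f1, Pou4f2, Pou4f3, Prdm12, Runx1, Runx3 and Etv1. They were taken by symbol from the 55367 genes of a mouse dorsal root ganglion table, and 4 of them, Isl1 and the 3 Pou4f genes, were also followed in a table of retinal ganglion cells. The study asked how the phosphatase gene Ptpn2 and the DNA sensor cGAS bear on the response of neurons to axon injury, in 27 RNA libraries of 9 groups with 3 libraries each.

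The ganglion groups were wild type after sham surgery, wild type 3 days after sciatic nerve injury, Ptpn2 KO after sham surgery, Ptpn2 KO 3 days after the injury, and injured wild type given RU521, an inhibitor of cGAS, at the sciatic nerve. All 15 libraries were labelled as ganglia of lumbar levels 4 and 5, which send axons into that nerve; the text of the series speaks of nerve samples, and the labels do not name the driver or vector behind the KO in ganglia. The retinal groups came from Ptpn2 flox mice whose eyes received AAV-Cre (the Ptpn2 KO) or AAV-GFP (the wild type) 2 weeks before optic nerve injury. Each genotype was given PBS or IFNγ right after the injury, and the cells were taken 3 days later, so every retinal group was injured and had a viral vector. Each library is named by its group and replicate number. The labels do not say that replicates came from separate animals, so p-values here cover no more than the spread between these libraries.

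Ganglion libraries held 14813365 to 22414750 counts and retinal libraries 13239988 to 17122057. A level under 3 counts was taken as below detection, which was at most 0.203 CPM (counts scaled to the TMM-adjusted library size) in ganglia and 0.227 CPM in retinal cells, and which covers counting error only. Ptpn2 stood at 10.5 to 26.4 CPM in ganglia and at 0 to 23.8 CPM in retinal cells. Levels in wild-type and KO libraries overlapped in both tables. Injured KO ganglia held 18.5 to 26.4 CPM. The log2 fold change of Ptpn2 with injury was 0.84 ± 0.22 (SE, edgeR adjusted p = 0.0244) in the KO. In wild type it was 0.28 ± 0.22 (edgeR adjusted p = 0.415). Because a gene count sums all exons, including those of a shortened transcript, it does not check the genotype labels, on which all directions rest. Wild-type sham replicates 1 and 3 stood apart from the other ganglion libraries with 26235 and 26802 detected genes and 4.87% and 6.52% mitochondrial counts, against 34115 genes and 15.2% in wild-type sham replicate 2. That second sham library held 1537 CPM of Acta1 and 575.3 CPM of Ckm, both skeletal muscle genes named here after their values were seen, where the other 14 ganglion libraries held at most 198 and 68.3 CPM.

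Sensory neurons of the ganglia arise from the neural crest, and Isl1 (a LIM homeodomain protein) and Pou4f1 (Brn3a, a POU homeodomain protein) act together in nearly all of them to end the precursor program and start the neuronal one. Pou4f2 and Pou4f3 (Brn3b and Brn3c) are close relatives that mark subsets of sensory and retinal neurons, and Pou4f2 is needed for retinal ganglion cell development. Prdm12 is a zinc finger regulator that is required for pain-sensing neurons, Runx1 sorts those neurons into subtypes, and Runx3 and the ETS factor Etv1 serve the proprioceptive neurons that report muscle stretch.

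The stretch just before a gene's start holds part of its regulatory sequence, and 4 such stretches are shown because the levels of Isl1, Pou4f1 and Pou4f2 moved together across the ganglion libraries (Pearson's r of 0.84 to 0.95) and that of Prdm12 did not. Each holds the 250 bases before the annotated start, 5′ to 3′ on the gene's strand, from RefSeq on GRCm38.p6, with each CG dinucleotide in capitals.
Isl1, chr13:116309689-116309938, minus strand: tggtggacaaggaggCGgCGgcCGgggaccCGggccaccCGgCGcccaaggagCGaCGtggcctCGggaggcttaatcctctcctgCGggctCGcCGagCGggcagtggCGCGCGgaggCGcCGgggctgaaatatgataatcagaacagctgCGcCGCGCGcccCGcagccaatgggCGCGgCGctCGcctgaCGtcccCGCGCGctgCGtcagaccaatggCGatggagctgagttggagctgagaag
Pou4f1, chr14:104468000-104468249, minus strand: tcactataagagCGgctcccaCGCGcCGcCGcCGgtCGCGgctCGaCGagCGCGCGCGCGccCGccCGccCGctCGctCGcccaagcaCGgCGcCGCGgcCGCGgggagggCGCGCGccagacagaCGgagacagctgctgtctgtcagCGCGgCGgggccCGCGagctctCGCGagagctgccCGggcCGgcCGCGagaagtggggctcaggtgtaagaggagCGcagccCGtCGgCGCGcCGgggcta
Pou4f2, chr8:78436648-78436897, minus strand: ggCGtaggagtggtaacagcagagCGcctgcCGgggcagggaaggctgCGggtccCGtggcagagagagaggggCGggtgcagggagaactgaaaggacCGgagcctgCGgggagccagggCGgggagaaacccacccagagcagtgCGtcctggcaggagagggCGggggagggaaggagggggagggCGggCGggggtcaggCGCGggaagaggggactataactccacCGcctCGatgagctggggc
Prdm12, chr2:31639787-31640036, plus strand: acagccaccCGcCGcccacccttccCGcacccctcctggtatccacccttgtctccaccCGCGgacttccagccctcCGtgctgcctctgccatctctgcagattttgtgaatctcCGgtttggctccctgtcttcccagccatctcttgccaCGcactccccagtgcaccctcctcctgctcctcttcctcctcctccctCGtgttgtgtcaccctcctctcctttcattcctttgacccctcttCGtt

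Of the 4 stretches shown, those of Isl1 and Pou4f1 were the densest in CG, with 33 and 47 such dinucleotides against a median of 6 over 32851 stretches of the same length. Pou4f2 held 17 and Prdm12 held 10. The GC content of the 4 was 71.2%, 78.0%, 70.8% and 61.2% in the order printed, against a median of 52.4%. Before their first and second starts, Runx1 held 2 and 27 CG, Etv1 9 and 1, and Runx3 8 and 38. Runx1 and Etv1 also moved with factors shown (Pearson's r of 0.90 between Runx1 and Pou4f2, 0.84 between Etv1 and Isl1). A tie between CG counts and levels was not tested. Short letter patterns of the factors' own families were searched on both strands: TAATTA (a homeodomain core), CATTAA (POU4), TGTGGT (RUNX) and CCGGAAG (ETS). None of the 4 patterns occurred in the 4 stretches shown, while 4.84%, 7.91%, 14% and 6.91% of all stretches held them; no match says only that these letters are not in this window. Stretches were read for 7 of the 8 genes, and 3 of the 7 had a second start. Pou4f3, whose level also moved with that of Isl1 (Pearson's r of 0.95), had none read, because factors on chromosome 18 were left out. In the stretches not shown the RUNX pattern occurred 2 times before the first start of Runx3 and 1 time before the first start of Etv1.

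Per length of their exons, Pou4f1 and Isl1 were the most abundant of the 8 factors in every ganglion group. In wild-type sham ganglia the level of Pou4f1 was 60.8 ± 18.9 CPM per kb and that of Isl1 30.9 ± 9.13 CPM per kb (SD, n = 3, as throughout). Etv1 (12.2 ± 3.24), Pou4f3 (12.1 ± 5.90) and Prdm12 (9.69 ± 4.85 CPM per kb) followed and did not differ from one another beyond their spread. Runx1 stood at 4.39 ± 0.900, Pou4f2 at 2.24 ± 0.717 and Runx3 at 1.64 ± 0.351 CPM per kb, the last pair again within their spread. The order changed in injured wild-type ganglia, where Prdm12 took rank 3 with 11.5 ± 5.72 CPM per kb and Etv1 rank 4 with 6.12 ± 0.286 CPM per kb, a pair that overlapped within the spread. In injured KO ganglia Prdm12 took rank 6, at 2.56 ± 0.973 CPM per kb.

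**Figure D1:**
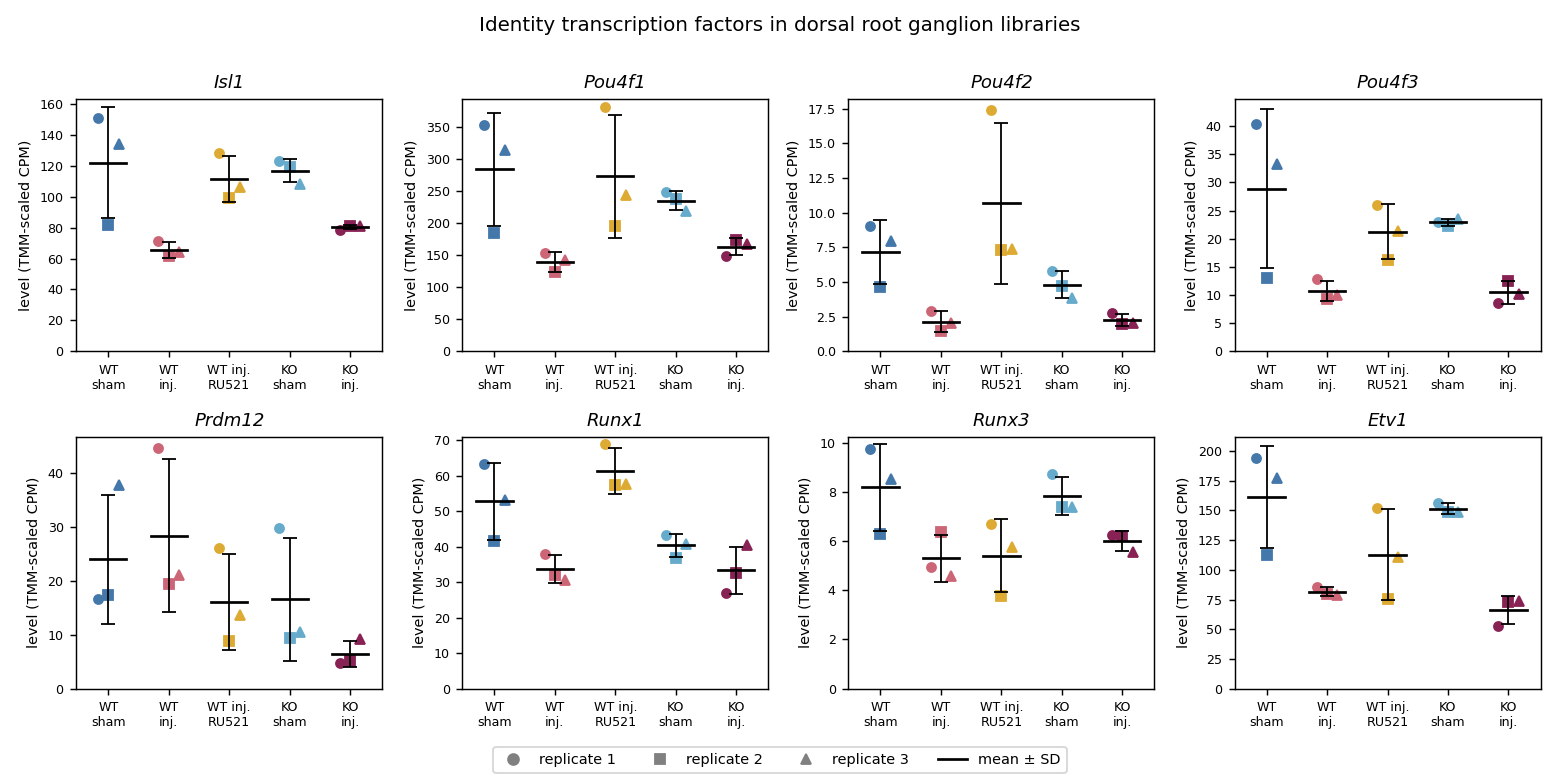
Level of each factor (vertical axes, TMM-scaled CPM, starting at 0) in the 15 ganglion libraries by group; WT is wild type, KO the Ptpn2 KO, inj. sciatic nerve injury. Points are libraries (circle, square and triangle for replicates 1, 2 and 3) and bars the mean ± SD; wild-type sham replicate 2 lies below both other sham libraries for all factors except Prdm12, and Prdm12 was at 9.10 CPM or less in all 3 injured KO libraries.

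Sciatic nerve injury lowered 6 of the 8 factors in wild-type ganglia. Isl1, Pou4f1 and Etv1 fell to about the same degree, Pou4f3 and Pou4f2 fell further, and Runx1 fell least. Runx3 and Prdm12 did not pass the test. Of all 18517 genes tested, 7.98% were called lower in this comparison (edgeR quasi-likelihood test with Benjamini-Hochberg adjusted p under 0.05, as for every call).

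The pan-sensory pair came first. Isl1 (chromosome 13, 116298281 to 116309689, minus strand of GRCm38) stood at 150.9, 81.6 and 134.1 CPM in wild-type sham replicates 1 to 3 and at 71.6, 61.7 and 64.1 CPM after injury. All injured libraries lay below all sham libraries, with the second sham library closest to them. The log2 fold change was -0.89 ± 0.18 (SE; edgeR adjusted p = 0.00531).

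Pou4f1 (chromosome 14, 104461676 to 104467999, minus strand) stood at 352.9, 184.3 and 314.4 CPM in sham and at 152.7, 123.0 and 143.1 CPM in injured libraries. Its groups did not overlap either, and again the second sham library was the lowest of its group. The log2 fold change was -1.02 ± 0.24 (edgeR adjusted p = 0.0100).

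Both relatives of Pou4f1 fell. Pou4f2 (chromosome 8, 78433010 to 78436645, minus strand) was scarce, at 9.0, 4.60 and 7.95 CPM in sham and 2.92, 1.43 and 2.06 CPM in injured libraries, which rest on 26 to 207 counts each. Its log2 fold change of -1.75 ± 0.39 was the largest of the 8 (edgeR adjusted p = 0.00869). Pou4f3 (chromosome 18, 42394539 to 42397249, plus strand) went from 40.4, 13.1 and 33.3 CPM to 12.8, 9.29 and 10.03 CPM, a log2 fold change of -1.44 ± 0.31 (edgeR adjusted p = 0.00773). For both genes the groups did not overlap, but the second sham library of Pou4f3 lay only just above the highest injured library.

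Among the factors of neuron subtypes, Etv1 (chromosome 12, 38779380 to 38870484, plus strand) fell from 194.5, 112.8 and 177.4 CPM to 85.8, 80.0 and 78.6 CPM (log2 fold change -0.99 ± 0.23, edgeR adjusted p = 0.0104). Runx1 (chromosome 16, 92601466 to 92826149, minus strand) fell from 63.4, 41.7 and 53.3 CPM to 38.1, 32.2 and 30.6 CPM (log2 fold change -0.65 ± 0.18, edgeR adjusted p = 0.0209). Neither gene's groups overlapped. Runx3 (chromosome 4, 135120652 to 135177990, plus strand) stood at 9.74, 6.27 and 8.53 CPM in sham and at 4.93, 6.38 and 4.57 CPM in injured libraries. Its groups overlapped by 1 injured library, and the log2 fold change of -0.63 ± 0.25 missed the threshold (edgeR adjusted p = 0.0990).

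Prdm12 (chromosome 2, 31640037 to 31655795, plus strand) behaved unlike the other 7 factors in its values. It stood at 16.6, 17.4 and 37.8 CPM in sham and at 44.6, 19.4 and 20.97 CPM in injured libraries. Each group held 1 high library, the groups overlapped, and the log2 fold change was 0.24 ± 0.49 (95% interval -0.81 to 1.29, edgeR adjusted p = 0.774). Without injured replicate 1 it was -0.26. Prdm12 shares 200 of its 2471 exon bases with the antisense gene Gm13425, and Runx1 shares 106 of 12025 with the antisense gene Gm26626, which held at most 7 counts. Reads were counted without strand, so reads from those shared bases cannot be told apart. Gm13425 itself fell with injury, from 13.0 to 17.9 CPM in sham to 3.59 to 6.76 CPM (log2 fold change -1.65 ± 0.27, edgeR adjusted p = 0.00188).

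For the 6 factors that fell, the groups did not overlap, as was so downwards for 15.8% of all genes tested. Without both sham libraries that stood apart, wild-type sham replicates 1 and 3, the sham arm is the 1 library with muscle genes, whose spread was assumed to be like that of the other groups. In that fit none of the 8 factors was called in edgeR, and the log2 fold changes came to -0.26 for Isl1, -0.35 for Pou4f1, -1.06 for Pou4f2, -0.25 for Pou4f3, -0.27 for Runx1 and -0.42 for Etv1, all still downward. With detected genes per library as a covariate none was called either, at -0.40, -0.37, -1.07, -0.43, -0.32 and -0.39. Runx1 also lost its call without wild-type sham replicate 1 or 3 or injured replicate 2 or 3, each left out alone. Its adjusted p in edgeR was then 0.0670 to 0.0915. Runx3 gained a call (edgeR adjusted p = 0.0230) without sham replicate 2. Over the fits that left out 1 library, 1240 to 6513 of all genes were called.

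In bulk tissue, fewer cells of a type and less RNA per cell cannot be told apart. Transcripts that all neurons carry moved with the factors: of 10 pan-neuronal genes 7 fell and 0 rose with injury, with a median log2 fold change of -0.84 beside 0.00 over all genes tested. The summed level of those 10 genes was 2900 to 5450 CPM in sham and 2334 to 2450 CPM in injured libraries. Of 15 macrophage and microglia markers, 15 rose (summed level 395 to 1225 CPM in sham, 2921 to 3037 CPM in injured libraries), and of 5 red blood cell markers 5 rose (1184 to 6481 against 10680 to 10749 CPM). Lymphocyte and neutrophil markers rose for 7 of 14 (394 to 1425 against 2994 to 3949 CPM) and endothelium and fibroblast markers for 4 of 8 (1211 to 2491 against 2588 to 2663 CPM). Of 12 satellite glia and Schwann cell markers 4 rose and 1 fell (11730 to 17786 against 23568 to 24689 CPM). No marker of these lists was at 0 in all ganglion libraries. The part of these cells in the factors' fall was not tested.

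Set against the pan-neuronal genes within each library, most of the fall of Isl1 and Runx1 was no longer seen. The log2 level of each factor minus the mean log2 level of the 10 genes changed with injury by -0.06 for Isl1 and 0.15 for Runx1, and by 0.17 for Runx3, which had not passed the test, all with overlapping groups. Pou4f2 stayed lower by this measure, from -4.79 ± 0.103 in sham to -5.75 ± 0.479 after injury, without overlap. Pou4f1 (0.52 ± 0.0875 to 0.33 ± 0.121) and Etv1 (-0.28 ± 0.0446 to -0.44 ± 0.0585) were lower by little, also without overlap. Pou4f3 changed by -0.51 (-2.87 ± 0.443 to -3.38 ± 0.210), with overlapping groups. Prdm12 was higher in all 3 injured libraries than in any sham library, at -2.07 ± 0.637 against -3.10 ± 0.627. These relative levels are descriptions and were given no test. The share of all genes separated on this scale was not computed, here or in later comparisons. Separations on it therefore have no background to be set against.

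**Figure D2:**
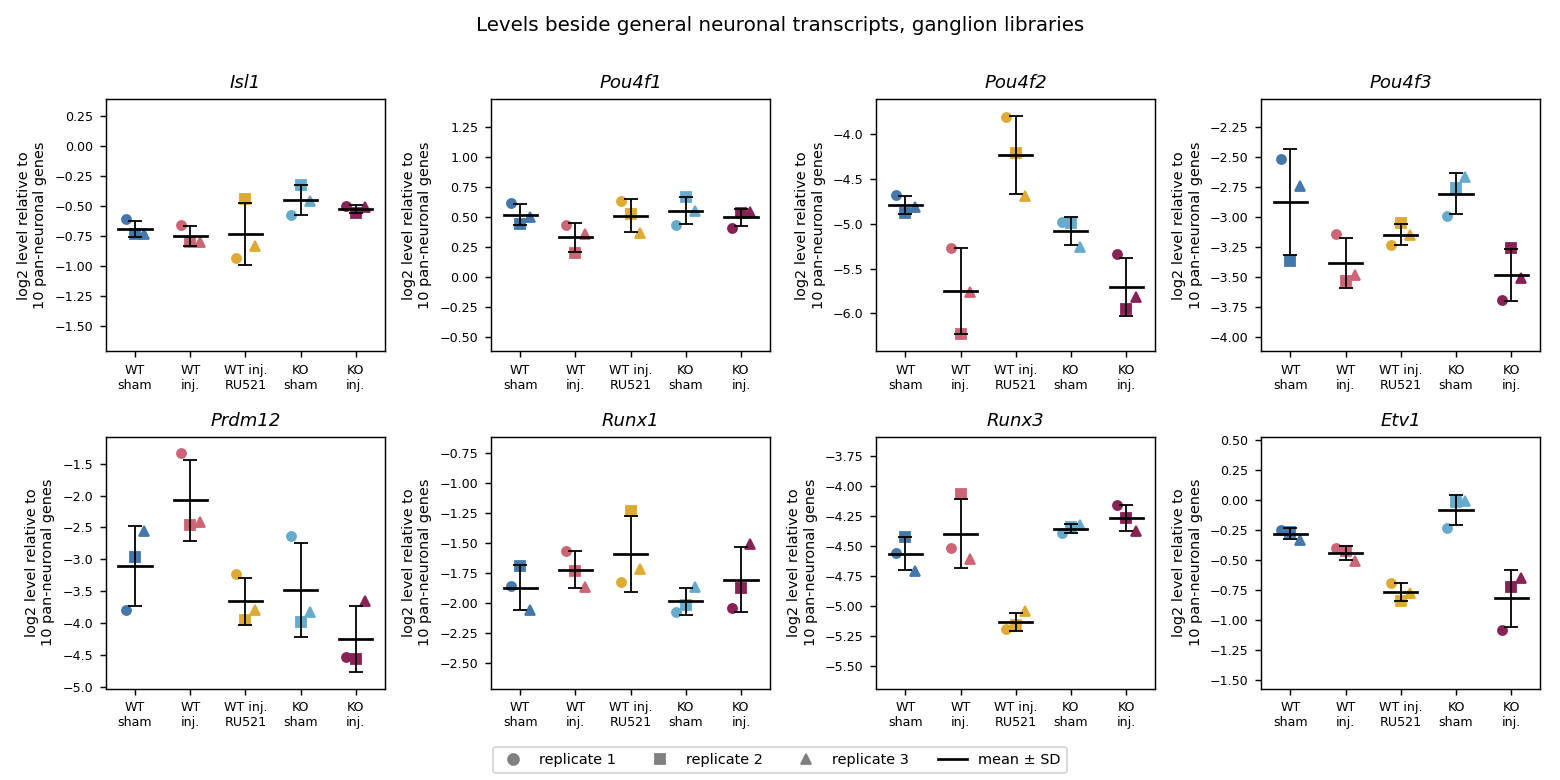
Level of each factor relative to general neuronal transcripts (vertical axes, log2 CPM of the factor minus the mean log2 CPM of 10 pan-neuronal genes) in the 15 ganglion libraries by group, with points for libraries and bars for mean ± SD. WT, KO and inj. stand for wild type, Ptpn2 KO and sciatic nerve injury; Isl1 and Runx1 differ little between wild-type sham and injured libraries, while Pou4f2 is lower after injury and higher with RU521, and Prdm12 is highest in injured wild type.

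Some other genes of the same programs fell with injury. Of 23 tested genes in a list of other sensory neuron transcription factors, 8 fell and 1 rose, with a median log2 fold change of -0.56. Shox2, a homeodomain factor of touch neurons, fell by 1.26 ± 0.23 (38.1 ± 13.3 to 15.9 ± 1.21 CPM), Cux2 by 1.39 ± 0.31 and Ebf1 by 0.60 ± 0.17 on the log2 scale. Mafa, a factor of mechanoreceptors, fell by 2.66 ± 0.75, from 1.83 to 0.283 CPM. Of 13 tested genes for partner proteins of the factors, 5 fell and 1 rose. Ldb2, which binds LIM homeodomain proteins such as Isl1, fell by 0.91 ± 0.18 and the corepressor gene Tle1 by 1.06 ± 0.22, while Lmo2, a LIM adaptor gene that blood and endothelial cells also carry, rose by 1.51 ± 0.40.

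Many genes of the neuron classes that these factors help to specify fell too. Of 20 nociceptor class genes 12 fell and 0 rose (median log2 fold change -0.90), and of 18 mechanoreceptor and proprioceptor class genes 13 fell and 2 rose (median -1.27). Nefh, the heavy neurofilament gene of large neurons, stood at 598.6 to 696.3 CPM in sham and 183.1 to 197.2 CPM in injured libraries. In this list Pvalb, a calcium buffer of proprioceptors that muscle also expresses, was at 960.8 CPM in the sham library with muscle genes and at 172.0 and 224.3 CPM in the other sham libraries.

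In Ptpn2 KO ganglia, injury lowered Etv1 and Pou4f3. The other 6 factors did not pass the test, though 7 of the 8, all except Runx1, had injured levels that lay below every KO sham library. Among all genes tested, 4.57% were called lower in this comparison and 18.5% had injured levels below every sham library.

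Etv1 stood at 156.6, 148.8 and 148.5 CPM in KO sham and at 52.5, 72.8 and 73.6 CPM in KO injured libraries. The sham libraries lay close together, and all injured ones were far below them. The log2 fold change was -1.19 ± 0.23 (edgeR adjusted p = 0.00414). Pou4f3 went from 23.0, 22.2 and 23.5 CPM to 8.62, 12.6 and 10.2 CPM, a log2 fold change of -1.13 ± 0.31 (edgeR adjusted p = 0.0305). Its call was lost (adjusted p of 0.0549 to 0.121) without any 1 of the 3 KO sham libraries or of KO injured replicates 1 and 3.

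Isl1 stood at 123.0, 119.5 and 108.6 CPM in KO sham and at 78.7, 81.3 and 81.2 CPM in KO injured libraries (log2 fold change -0.54 ± 0.18, edgeR adjusted p = 0.0645). Pou4f1 stood at 248.3, 237.3 and 218.6 CPM and at 148.1, 173.8 and 167.8 CPM (-0.52 ± 0.23, adjusted p = 0.174). Both genes had narrow groups that did not overlap, and a fit of the KO sham and KO injured libraries alone called both, with adjusted p of 0.00137 and 0.00188. That fit called 6 of the 8 factors, all but Runx1 and Runx3. The share of all genes called in it is not given here. Pou4f2 was at 3.87 to 5.79 CPM in sham and 1.94 to 2.75 CPM in injured libraries (-1.09 ± 0.39, adjusted p = 0.0879).

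Runx1 overlapped between the groups, at 36.9 to 43.4 CPM in sham and 27.1 to 40.4 CPM in injured libraries (log2 fold change -0.28, 95% interval -0.65 to 0.10, edgeR adjusted p = 0.363). Runx3 was at 7.39 to 8.71 and 5.54 to 6.25 CPM (-0.39, interval -0.92 to 0.15, adjusted p = 0.377). Prdm12 had 1 high sham library, with 29.7, 9.42 and 10.5 CPM, and went to 4.81, 5.07 and 9.10 CPM in the injured ones. Its log2 fold change of -1.39 ± 0.52 missed the threshold (adjusted p = 0.103).

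Of the 10 pan-neuronal genes, 2 fell here, with a median log2 fold change of -0.51, and their summed level was 3538 to 4171 CPM in KO sham and 2440 to 2552 CPM in KO injured libraries. Relative to them, Etv1 was lower after injury (-0.08 ± 0.128 to -0.82 ± 0.235), as were Pou4f3 (-2.80 ± 0.171 to -3.48 ± 0.218) and Pou4f2 (-5.08 ± 0.159 to -5.70 ± 0.321), each without overlap between libraries. Isl1 changed by -0.07 and Pou4f1 by -0.05 on that scale. Of the other sensory neuron transcription factors 2 of 23 fell, Shox2 (-0.75 ± 0.23) and Ebf1 (-0.54 ± 0.17). Ldb2 (-0.91 ± 0.18) was the 1 gene called of 13 partners. Macrophage and microglia markers rose here too, 12 of 15, whereas 0 of 5 red blood cell markers passed the test, and the part of those cells was not tested.

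None of the 8 factors had an injury effect that differed between genotypes by the interaction test, in which 0.448% of all genes were called. In edgeR 1 factor, Prdm12, had an unadjusted p under 0.05, as did 1812 of the 18517 genes tested. Etv1 differed between genotypes by -0.20 ± 0.32 and Isl1 by 0.35 ± 0.25 (95% interval -0.19 to 0.89) on the log2 scale. For Prdm12 the difference was -1.63 ± 0.72 (edgeR adjusted p = 0.476). Without a filter on low counts edgeR called it (adjusted p = 0.000571), with nearly the same difference of -1.61 and a smaller SE of 0.34. DESeq2 called 0 of the 8 in this test.

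**Figure D3:**
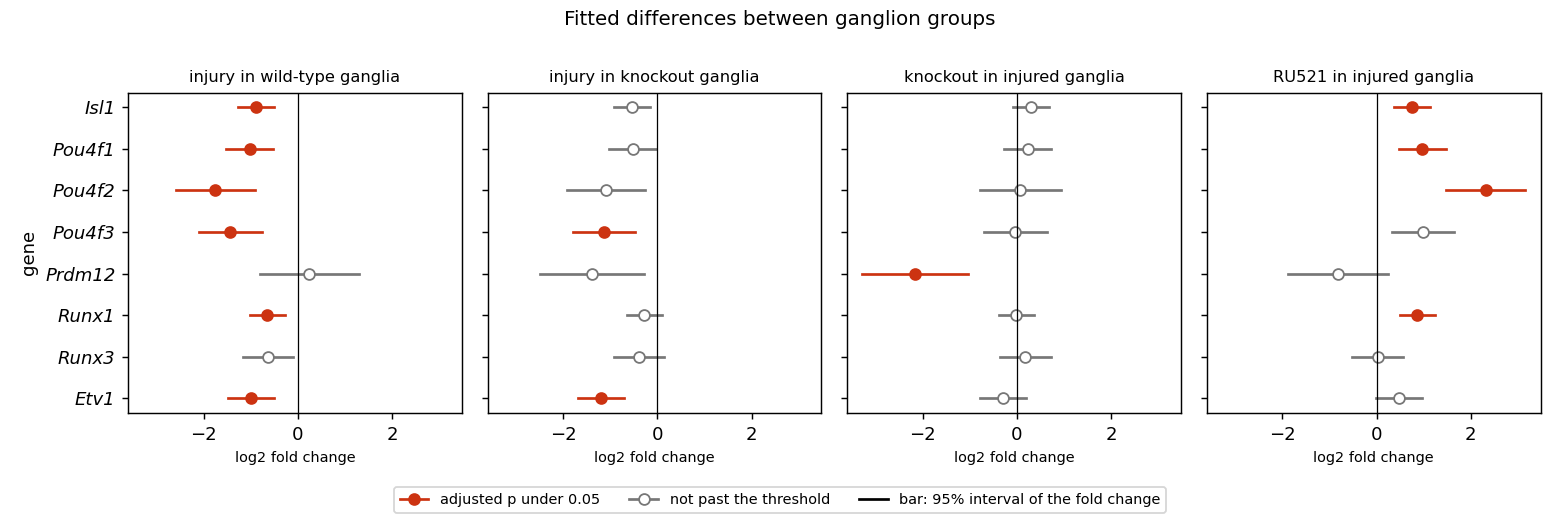
Fitted log2 fold changes of the 8 factors (points) with 95% intervals (bars) in 4 comparisons of ganglion groups; filled red points passed the edgeR test at an adjusted p under 0.05. Injury in wild type gives 6 filled points, all left of 0, injury in the KO 2, the KO against wild type after injury 1 (Prdm12), and RU521 after injury 4, all right of 0; the first and the last comparison share no group other than injured wild type.

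Between genotypes, Prdm12 was the 1 factor of 8 that was called, in injured ganglia, where it was lower in the KO. It stood at 4.81, 5.07 and 9.10 CPM in injured KO against 44.6, 19.4 and 20.97 CPM in injured wild-type libraries. Every KO library lay below every wild-type library, and the counts behind them were 76 to 138 and 326 to 733. The log2 fold change was -2.16 ± 0.53 (95% interval -3.28 to -1.04, edgeR adjusted p = 0.0438), in a comparison in which 0.81% of all genes were called lower.

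The Prdm12 call was lost when any 1 of the 6 libraries was left out, with log2 fold changes of -2.52 to -1.68 and adjusted p of 0.0629 to 0.223. DESeq2 called it (adjusted p = 0.00974). The antisense gene Gm13425 differed by -0.20 ± 0.27 between the same groups (edgeR adjusted p = 0.828), at 4.34 to 4.62 CPM in KO and 3.59 to 6.76 CPM in wild type. Relative to the pan-neuronal genes Prdm12 was at -4.25 ± 0.513 in injured KO and -2.07 ± 0.637 in injured wild type, again without overlap. Of genes of the nociceptor class, in which Prdm12 acts, 0 of 20 were called, with a median of -0.25. In edgeR 1 of them was at an unadjusted p under 0.05, as were 2448 of the 18517 genes tested.

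Markers of other cells differed between the same groups. Satellite glia and Schwann cell markers summed to 11520 to 14220 CPM in injured KO and 23568 to 24689 CPM in injured wild-type libraries (2 of 12 called lower), and red blood cell markers to 5281 to 6567 and 10680 to 10749 CPM (0 of 5 called, 2 at an unadjusted p under 0.05 in edgeR). Endothelium and fibroblast markers summed to 1819 to 2075 and 2588 to 2663 CPM (2 of 8 called lower), while 1 of 15 macrophage and microglia markers and 1 of 14 lymphocyte and neutrophil markers were called higher. Their part in the Prdm12 difference was not tested.

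The other 7 factors gave small differences after injury, from -0.30 for Etv1 to 0.29 for Isl1. The 95% intervals were -0.09 to 0.67 for Isl1, -0.27 to 0.72 for Pou4f1, -0.39 to 0.36 for Runx1 and -0.78 to 0.19 for Etv1. Isl1 was nevertheless higher in each injured KO library (78.7 to 81.3 CPM) than in any injured wild-type one (61.7 to 71.6 CPM), and Etv1 was lower (52.5 to 73.6 against 78.6 to 85.8 CPM). Such separation upwards was found for 16% and downwards for 14.3% of all genes tested.

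After sham surgery none of the 8 factors was called between genotypes in edgeR, nor in DESeq2, where 0.135% of all genes were called in edgeR. In edgeR 1 factor, Runx1 (-0.39 ± 0.17), was at an unadjusted p under 0.05, as were 1606 of the 18517 genes tested. The log2 fold changes ran from -0.58 ± 0.37 for Pou4f2 to -0.06 ± 0.18 for Isl1. The groups of all 8 overlapped in CPM, where 6.65% of all genes were separated upwards and 5.24% downwards. The Isl1 value of -0.06 (adjusted p = 0.954) came to 0.55 (adjusted p = 0.0479) without wild-type sham replicates 1 and 3. That fit sets 3 KO sham libraries against 1 wild-type sham library, the one with muscle genes, and takes its spread from the other groups. Relative to the pan-neuronal genes, Isl1 (0.24), Runx3 (0.21) and Etv1 (0.20) were higher in KO sham than in wild-type sham without overlap. Pou4f2 (-0.29) was lower without overlap, and the other factors overlapped on that scale.

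RU521 raised 4 of the 8 factors in injured wild-type ganglia: Pou4f2, Pou4f1, Runx1 and Isl1. This comparison and that of injury in wild type share the injured libraries, so their values are set side by side only. Of all genes tested 5.1% were called higher, and 16.1% had all RU521 libraries above all injured libraries, as 5 of the 8 factors did.

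Pou4f2 showed the largest difference. It stood at 17.4, 7.30 and 7.36 CPM with RU521 against 2.92, 1.43 and 2.06 CPM without it. RU521 replicate 1 was more than 2 times as high as the other RU521 libraries, and the groups did not overlap. The log2 fold change was 2.32 ± 0.40 (edgeR adjusted p = 0.00366), which corresponds to 5.0-fold.

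Pou4f1 stood at 380.6, 195.0 and 244.7 CPM with RU521 against 152.7, 123.0 and 143.1 CPM (log2 fold change 0.97 ± 0.24, edgeR adjusted p = 0.0186). Isl1 stood at 128.3, 99.3 and 106.7 CPM against 71.6, 61.7 and 64.1 CPM (0.76 ± 0.18, adjusted p = 0.0164). For both, RU521 replicate 1 was the highest and all RU521 libraries lay above all injured ones. Both calls were lost without RU521 replicate 1 (Pou4f1 0.66, adjusted p = 0.113; Isl1 0.65, adjusted p = 0.0819), and also without injured replicate 2 or injured replicate 3 (adjusted p of 0.0646 to 0.0925). Runx1 stood at 68.9, 57.5 and 57.7 CPM against 38.1, 32.2 and 30.6 CPM. Its groups were well apart and its log2 fold change was 0.87 ± 0.18 (adjusted p = 0.00771).

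Pou4f3 stood at 26.1, 16.3 and 21.3 CPM with RU521 against 12.8, 9.29 and 10.03 CPM. These did not overlap, yet the log2 fold change of 0.99 ± 0.31 missed the threshold in edgeR (adjusted p = 0.0573) and passed it in DESeq2 (adjusted p = 0.0162). Etv1, at 152.1, 75.5 and 111.0 CPM, overlapped with the injured libraries (0.47 ± 0.23, edgeR adjusted p = 0.212). Runx3, at 3.77 to 6.70 CPM, was at 0.03 (95% interval -0.51 to 0.57). Prdm12 was at 26.0, 8.74 and 13.6 CPM, and its log2 fold change of -0.81 ± 0.50 did not pass (adjusted p = 0.338), except without the low count filter (-0.76, edgeR adjusted p = 0.0315). Gm13425, antisense to Prdm12, rose by 1.96 ± 0.27 in this comparison (adjusted p = 0.00118).

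General neuronal transcripts rose too. Of the 10 pan-neuronal genes 5 rose and 0 fell (median log2 fold change 0.84 beside -0.03 over all genes tested), at a summed level of 2730 to 4580 CPM. Macrophage and microglia markers fell for 4 of 15 (summed level 1144 to 3411 CPM), satellite glia and Schwann cell markers for 6 of 12 (9529 to 11387 against 23568 to 24689 CPM) and endothelium and fibroblast markers for 5 of 8. RU521 replicate 1, the highest library for all 8 factors of its group, had 28803 detected genes and 7.83% mitochondrial counts, against 30938 and 32488 genes and 11.3% and 15.5% in the other RU521 libraries. The part of these cells and of that library's quality was not tested; with detected genes per library as a covariate the same 4 factors were called in edgeR, at 1.86 for Pou4f2, 0.66 for Runx1, 0.55 for Pou4f1 and 0.47 for Isl1.

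Relative to the pan-neuronal genes, Pou4f2 was the factor that stayed higher with RU521, at -4.24 ± 0.436 against -5.75 ± 0.479, without overlap. Isl1 changed by 0.02, Runx1 by 0.13, Pou4f1 by 0.18 and Pou4f3 by 0.24, all with overlapping groups. Another 3 factors were lower by this measure in every RU521 library than in any injured one. They were Prdm12 (-3.66 ± 0.376 against -2.07 ± 0.637), Runx3 (-5.13 ± 0.0766 against -4.40 ± 0.289) and Etv1 (-0.77 ± 0.0772 against -0.44 ± 0.0585). The share of all genes so separated was not computed.

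Of the other sensory neuron transcription factors, 4 of 23 rose with RU521 and 0 fell: Zfhx3 (1.26 ± 0.25), Klf7 (0.80 ± 0.19), Casz1 (1.30 ± 0.35) and Ebf3 (1.58 ± 0.43, 5.19 to 15.4 CPM). Of the partner genes 4 of 13 rose and 2 fell. Ldb2 rose by 1.15 ± 0.18, Tle1 by 1.14 ± 0.22 and Ssbp3, whose product stabilises LIM complexes, by 0.97 ± 0.19, while Lmo2 fell by 1.86 ± 0.41. Of nociceptor class genes 13 of 20 rose and 0 fell (median 1.22), and of mechanoreceptor and proprioceptor class genes 6 of 18 rose and 1 fell (median 0.61).

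Against the sham libraries, injured ganglia with RU521 gave no called factor in edgeR or DESeq2, where 2.39% of all genes were called in edgeR. In edgeR 2 of the 8 were at an unadjusted p under 0.05, as were 2801 of the 18517 genes tested. This comparison uses the same sham libraries as the injury comparison. The log2 fold changes ran from -0.60 ± 0.25 for Runx3 to 0.57 ± 0.37 for Pou4f2. The groups of all 8 overlapped in CPM, where 6.8% of all genes were separated upwards and 5.56% downwards. The 95% intervals were -0.51 to 0.25 for Isl1, -0.55 to 0.44 for Pou4f1 and -1.0 to -0.03 for Etv1. Without wild-type sham replicate 2, 3 factors were called lower in edgeR: Isl1 (-0.36, adjusted p = 0.0492), Pou4f3 (-0.80, adjusted p = 0.0195) and Etv1 (-0.73, adjusted p = 0.0256). Over the fits of this comparison that left out 1 library, 112 to 2276 of all genes were called. Relative to the pan-neuronal genes, Runx3 (-0.57) and Etv1 (-0.49) were lower with RU521 than in sham without overlap. The other factors overlapped on that scale.

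Across the 15 ganglion libraries the levels of several factors moved together, while those of Prdm12 and of some pairs with Runx3 did so less. Pearson's r of log2(CPM + 0.5) was 0.95 between Isl1 and Pou4f1, 0.95 between Isl1 and Pou4f3, 0.92 between Pou4f3 and Etv1, 0.91 between Pou4f1 and Pou4f2 and 0.90 between Pou4f2 and Runx1. Prdm12 gave 0.15 with Isl1 and at most 0.50, with Etv1. Runx3 gave 0.74 with Etv1 and 0.21 with Runx1. These values describe 15 libraries that share 5 groups and the library differences given above.

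Among 11342 genes with a mean of 5 CPM or more, the genes most like each factor over the 15 libraries were chosen by the highest r, which makes high values certain. They were Fstl1 (0.98), Emc4 and Rit2 for Isl1, and Pitpnc1 (0.98), Micu3 and the neuronal RNA-binding gene Elavl4 for Pou4f1. For Pou4f2 they were the itch receptor gene Mrgpra3 (0.98), the potassium channel gene Kcnd3 and the sorting receptor gene Sorl1, and for Pou4f3 Araf (0.98), Dpp6 and Polr3g. Runx1 was most like Scn9a (0.93), the sodium channel gene of nociceptors, Ctxn1 and Ano3. Etv1 was most like Pcyt1b (0.97), Rcan2 and Lrrc49, Runx3 most like Mrps2 (0.93), Clu and Xrcc5, and Prdm12 most like Kctd6 (0.91), Rragd and Palm.

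In the picked retinal ganglion cells, all after optic nerve injury, Isl1 and the 3 Pou4f genes were detected in most libraries and differed widely between libraries of 1 group. No factor was called in any of 6 comparisons by edgeR, nor by DESeq2, and none of the 4 had an unadjusted p under 0.05 in edgeR. The share of all 13487 genes tested that was called was 0% in 4 comparisons, 0.0222% for the KO with PBS and 0.0519% for the KO with IFNγ against wild type with PBS. The biological coefficient of variation over all genes was 1.27 here and 0.262 in ganglia, so differences of the size seen in ganglia were not detectable with these libraries.

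Isl1 stood at 64.3, 48.2 and 38.2 CPM in wild type with PBS and at 40.7, 77.1 and 29.6 CPM in wild type with IFNγ. In the KO it stood at 58.3, 20.2 and 0 CPM with PBS and at 93.2, 46.2 and 13.9 CPM with IFNγ. The lowest and highest libraries were both KO libraries, and the groups overlapped in each comparison made. IFNγ gave log2 fold changes of -0.03 ± 1.26 in wild type and 0.97 ± 1.27 in the KO.

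Pou4f1, the general marker of adult retinal ganglion cells in this family, stood at 22.9, 13.1 and 2.72 CPM in wild type with PBS and at 11.9, 49.5 and 20.2 CPM with IFNγ. KO libraries held 6.53, 5.94 and 9.02 CPM with PBS and 49.4, 8.40 and 21.2 CPM with IFNγ. Both IFNγ groups held a library far above the others, and the groups overlapped in each comparison made. The log2 fold changes with IFNγ were 1.08 ± 0.96 in wild type (95% interval -0.97 to 3.13) and 1.88 ± 0.98 in the KO (interval -0.22 to 3.97).

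Pou4f2 was at 0, 0 and 5.0 CPM in wild type with PBS, at 2.14, 7.39 and 3.03 CPM with IFNγ, at 3.96, 14.99 and 0 CPM in the KO with PBS and at 3.10, 6.28 and 0 CPM in the KO with IFNγ. It was thus at 0 counts in 4 of the 12 libraries. Pou4f3 was the most abundant of the 4 in several libraries, at 111.0, 110.0 and 19.6 CPM in wild type with PBS and 61.7, 15.3 and 42.3 CPM with IFNγ. In the KO it was at 0, 20.0 and 18.6 CPM with PBS and 13.9, 28.3 and 88.6 CPM with IFNγ. The KO against wild type with PBS gave a log2 fold change of -2.64 ± 1.33 for Pou4f3 (95% interval -5.51 to 0.22), with overlapping groups.

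**Figure D4:**
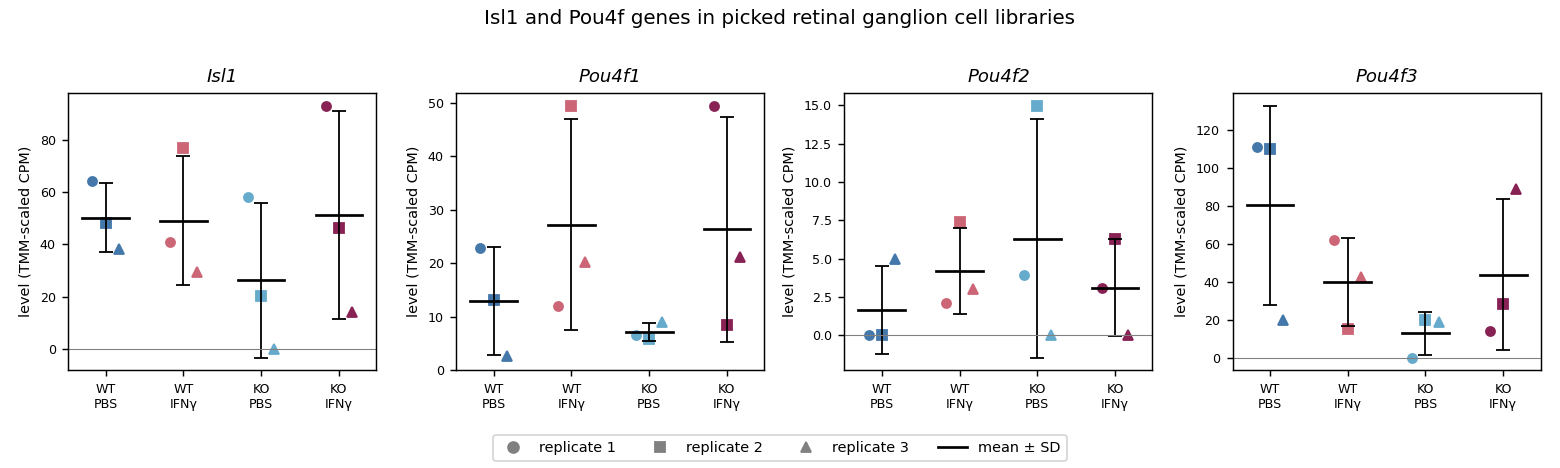
Levels of Isl1 and the 3 Pou4f genes (vertical axes, TMM-scaled CPM; a thin line marks 0) in the 12 libraries of picked retinal ganglion cells, by genotype and injection; points are libraries and bars mean ± SD. Over all 12 libraries Isl1 ran from 0 to 93.2 CPM and Pou4f3 from 0 to 111.0 CPM. Within 1 group Isl1 ran from 13.9 to 93.2 CPM (KO with IFNγ) and Pou4f3 from 19.6 to 111.0 CPM (wild type with PBS).

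Per length of its exons, Pou4f3 came before Isl1 in 3 of the 4 retinal groups, with 33.4 ± 21.9 against 12.7 ± 3.32 CPM per kb in wild type with PBS, and after Isl1 in the KO with PBS (5.36 ± 4.65 against 6.61 ± 7.48 CPM per kb). None of these pairs differed beyond the spread. All 3 Pou4f genes reached 3 counts in 7 of the 12 libraries, and 2 of the 3 did so in the other 5. Prdm12 and Runx3 were at 0 counts in all 12 libraries, and Etv1 was at 0 in 9. A count of 0 allows a level up to the floor of 3 counts. In wild-type sham ganglia the same 3 genes were at 16.6 CPM or more, 6.27 CPM or more and 112.8 CPM or more, in a separately scaled table. Runx1, in contrast, was below 3 counts in only 1 of the 12 retinal libraries. Its median there was 10.3 CPM and its highest level 40.9 CPM.

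The labelled cell type was set beside marker lists. Of 24 retinal ganglion cell genes 23 were detected, Atoh7 of developing cells being at 0, and their summed level was 3780 to 12137 CPM. In ganglia none of the 24 was at 0 in all libraries, and the list summed to 6952 CPM (injured wild type) to 14050 CPM (wild-type sham). This list therefore does not tell retinal ganglion cells from sensory neurons. In the retinal libraries, a list of bipolar, amacrine and photoreceptor markers summed to 57.9 to 2108 CPM, highest in KO replicate 2 with PBS. Vsx1, Grm6, Cabp5, Tfap2b and Chat of that list were at 0 in all 12. The list also holds the glial genes Rlbp1, Glul and Apoe, so its sum does not measure the named cells alone. In ganglia it summed to 5632 to 9332 CPM. Macrophage and microglia markers summed to 3677 CPM in KO replicate 2 with PBS and to 8.48 to 198 CPM in the other 11 libraries. That library held the highest Pou4f2 level of all 12, and its part in the KO values was not tested.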

How the data were processed

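Ganglion RNA was amplified with SMART-Seq v4 and picked retinal ganglion cells with Smart-seq2, per the labels' protocols. The deposited values are raw counts per gene symbol. The submitters' processing notes name Trim Galore, STAR and GRCm38 (mm10), with no versions. For ganglia the authors ran featureCounts 2.0.1 with Ensembl release 101 from primary alignments of mapping quality 10 or more, without strand, per the file headers; for the retinal counts the labels name no counter. The exon lengths in bp deposited in the ganglion table, another unit, served only for CPM per kb. The retinal table ends in a nameless line of column sums (50% of all its counts), which was left out.

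The 2 tables had a fit each in edgeR 4.0.16 (R 4.3.3) with TMM, genes filtered by filterByExpr (at least 10 counts, 15 in total), robust quasi-likelihood dispersions over all groups, and Benjamini-Hochberg adjustment over all genes tested, with a threshold of 0.05. Intervals are 95% intervals of the fold change. The members and all gene lists were chosen with earlier results of these data known, so no count over them is independent evidence. Named genes were the 8 members, the called genes of smallest p in a list (at most 4, or else the 2 most abundant), and the 3 genes most like each member; Nefh, Pvalb, Acta1, Ckm and Gm13425 were added beside results. Of 27 listed other factors, 26 symbols were in the table. Ebf1 and Ebf3 also stand in the list of retinal ganglion cell genes, and Elavl4 in the pan-neuronal list. Glul stands both in the satellite glia and Schwann cell list and in the bipolar, amacrine and photoreceptor list. The code was tested on simulated data. Alternatives were DESeq2 size factors, no low count filter, DESeq2 1.42.0, a fit of only the compared groups, a replicate block, detected genes as a covariate, levels without length, and leaving out libraries.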

Additional observations from a re-analysis of the deposited data

How the results depend on the processing

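Several calls on the 8 factors in ganglia changed with the fit and with the libraries used. For injury in wild type (6 called), a fit of only the compared groups called 3, and 0 were called with detected genes as a covariate. Without both sham replicates 1 and 3, 1 sham library is left and its spread is taken from the other groups. The log2 fold changes of the 6, given above, were then smaller in size and still downward. Leaving out 1 library gave 5 to 7, with 1240 to 6513 of all genes called. For injury in the KO (2 called), 4 were called without a low count filter, with DESeq2 and with detected genes as a covariate. A fit of only the compared groups called 6. Leaving out 1 library gave 1 to 2, with 887 to 1426 of all genes called. For the KO after injury (1 called, Prdm12), the covariate gave 2. Leaving out any 1 library gave 0, with 196 to 294 of all genes called. For RU521 in injured ganglia (4 called), 6 were called without the low count filter (Pou4f3 added, and Prdm12, lower). With DESeq2 or only the compared groups 5 were called (Pou4f3 added). Leaving out 1 library gave 2 to 6, with 476 to 2725 of all genes called. For RU521 against sham (0 called) leaving out 1 library gave 0 to 3, with 112 to 2276 of all genes called. The share of all genes called is not given for the other alternatives. The interaction gave 1 call without the low count filter. Without both sham replicates 1 and 3, the KO against the 1 sham library left gave 1 call, Isl1, whose log2 fold change turned from -0.06 to 0.55. The causes of these changes were not tested. DESeq2 size factors in edgeR changed no call. In retinal cells each alternative run gave 0 called factors (biological coefficient of variation 1.27).

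Ordering by CPM without length left 1 of the 8 factors at its rank in wild-type sham, 3 in wild-type injured, 3 with RU521, 3 in KO sham and 6 in KO injured ganglia, and of 4 factors 2 in wild type with IFNγ, 2 in the KO with PBS and 2 in the KO with IFNγ.

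The main fits used no pairing by replicate number. The deviations of same-numbered ganglion libraries from their group means correlated at -0.15 to 0.31, with 6 of 30 pairs over 0.1. Those of retinal libraries correlated at -0.02 to 0.06. With 3 libraries per group these values cannot decide whether samples were paired. The replicate block gave 4 calls for injury in the KO in place of 2 (Isl1, Pou4f2, Pou4f3 and Etv1) and 5 for RU521 in place of 4 (Pou4f3 added).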
